A study of Mus musculus with 32 samples.

Results

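The genes described here were 10 genes of adipocyte type or of the lipid droplet in mouse liver: Cfd, Adipoq, Retn, Lep, Plin1, Cidea, Fabp4, Cidec, Plin4 and Pparg. They were taken by symbol from a table of 54532 genes, and Cfd was chosen by its measured values, since it was much higher in knockout livers under the drug than on chow in these same data. The expression table covered 32 livers, 4 in each of 8 groups that crossed sex, genotype and diet. All mice were 12 weeks old and on the C57BL/6 strain. The groups were female and male wild type (WT) mice fed chow, female and male WT mice fed chow with SC-435, female and male Cyp2c70 knockout (KO) mice fed chow, and female and male Cyp2c70 KO mice fed chow with SC-435. SC-435 is an inhibitor of the ileal bile acid transporter (IBAT), the protein that takes bile acids back up from the gut. It made up 0.006% of the diet, about 11 mg/kg/day. Cyp2c70 is the liver enzyme that makes muricholic acids in mice, and the KO line descends from 1 edited founder that carried a deletion spanning exon 2. The mice were not fasted, and the livers were perfused with saline before pieces of the lobes were frozen for RNA.

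Adipocytes store triglyceride in a large lipid droplet and secrete hormones and other proteins. Cfd encodes adipsin, or complement factor D, the serine protease that cleaves factor B and so starts the alternative complement pathway, and adipocytes are its best known source. Adipoq (adiponectin), Lep (leptin) and Retn (resistin) encode secreted adipocyte proteins, Plin1 encodes the coat protein of the adipocyte droplet, and Cidea encodes a droplet protein typical of brown fat. Fabp4 encodes a fatty acid binding protein of adipocytes, macrophages and capillary endothelium. Pparg encodes the nuclear receptor that drives adipocyte formation, and hepatocytes express it at a low level that rises in fatty liver, together with droplet genes such as Cidec and Plin4.

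Cfd and Adipoq are shown here at the level of sequence because their counts moved together across mice. The windows are the 250 bases before the annotated start of each gene, from RefSeq promoters on GRCm38.p6, both on the + strand, with CCAAT or its reverse complement ATTGG in capitals.
Cfd, chr10:79890603-79890852: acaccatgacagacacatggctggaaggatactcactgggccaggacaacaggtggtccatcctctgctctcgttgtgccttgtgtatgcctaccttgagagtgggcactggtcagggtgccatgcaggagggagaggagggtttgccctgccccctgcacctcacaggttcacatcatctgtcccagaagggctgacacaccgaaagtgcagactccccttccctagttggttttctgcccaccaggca
Adipoq, chr16:23146286-23146535: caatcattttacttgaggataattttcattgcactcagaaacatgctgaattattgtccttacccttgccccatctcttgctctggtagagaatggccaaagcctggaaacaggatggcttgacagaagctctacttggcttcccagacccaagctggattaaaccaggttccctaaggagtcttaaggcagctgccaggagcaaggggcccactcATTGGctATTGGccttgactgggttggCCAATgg
The Adipoq window held CCAAT on either strand at 3 places within its last 34 bases, and the Cfd window held none. Of 32851 promoter windows of this length, 33.8% held CCAAT on either strand. Neither window held TATAAA (12.4% of all windows), the nuclear receptor half-site AGGTCA (14.0%), the DR1 repeat, which contains that half-site on both sides of a spacer base (0.0335%), or TTGCGCAA (0.164%), each searched on both strands. The table held promoters for 8 of the 10 genes.

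Each library held 36476021 to 44771350 counts assigned to genes. Albumin (Alb), the defining hepatocyte transcript, stood at 31600 to 130000 CPM (counts relative to library size, scaled between libraries by TMM factors), so every library carried its liver label. Cyp2c70 was lower in KO than in WT livers of the same sex and diet without overlap, for example 7254 to 9032 against 24105 to 32421 counts in females on chow. The first male WT mouse on chow stood apart, with a mean correlation of 0.929 with its group against 0.971 to 0.973 for the other 3 mice. Summed markers of cholangiocytes reached 132 to 1180 CPM in KO livers on chow against 24.2 to 69.2 CPM in WT livers on chow. Summed macrophage markers were 368 to 1460 CPM in KO and 323 to 504 CPM in WT livers on chow. In bulk tissue, more cells of a type and more RNA per cell cannot be told apart.

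The 10 genes fell into 2 kinds by how often they were counted at all. Fabp4, Cidec, Plin4 and Pparg had 58 or more counts in each of the 32 livers. Adipoq had 10 or more counts in 10 livers and was at 0 in 7, Plin1 had 10 or more in 10 livers and was at 0 in 17, and Lep had 10 or more in 2 livers and was at 0 in 25. Per kilobase of gene length, the median level over all mice was 3.98 CPM for Pparg, 2.57 for Cidec, 1.90 for Fabp4, 0.993 for Plin4, 0.474 for Cfd and 0.0346 for Adipoq. The length in the table for Fabp4, 4489 bases, equals its whole span with introns, so its level per kilobase is set low by that length. Adipoq, Plin1, Cidea, Retn and Lep had a median of 0 to 3 counts.

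Cfd (ENSMUSG00000061780, mm10 chromosome 10, 79890853 to 79892655) ranged from 0 to 2790 counts, and mice of 1 group often lay far apart. In female WT mice on chow the 4 livers had 593, 784, 1 and 1 Cfd counts, and in female KO mice on chow 102, 549, 665 and 4. Female WT mice under SC-435 had 0, 2379, 24 and 1 counts, and female KO mice under SC-435 had 0, 0, 0 and 4. High and absent values thus stood side by side in 3 of the 4 female groups, and the KO group under SC-435 was near 0 throughout. In male WT mice on chow the livers had 2261, 3, 9 and 1704 Cfd counts, and in male KO mice on chow 7, 5, 9 and 2. Male WT mice under SC-435 had 54, 59, 27 and 11 counts, and male KO mice under SC-435 had 1710, 2790, 38 and 307. Among males, each mouse under SC-435 had 11 or more counts, whereas 6 of the 8 mice on chow had 2 to 9.

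**Figure D1:**
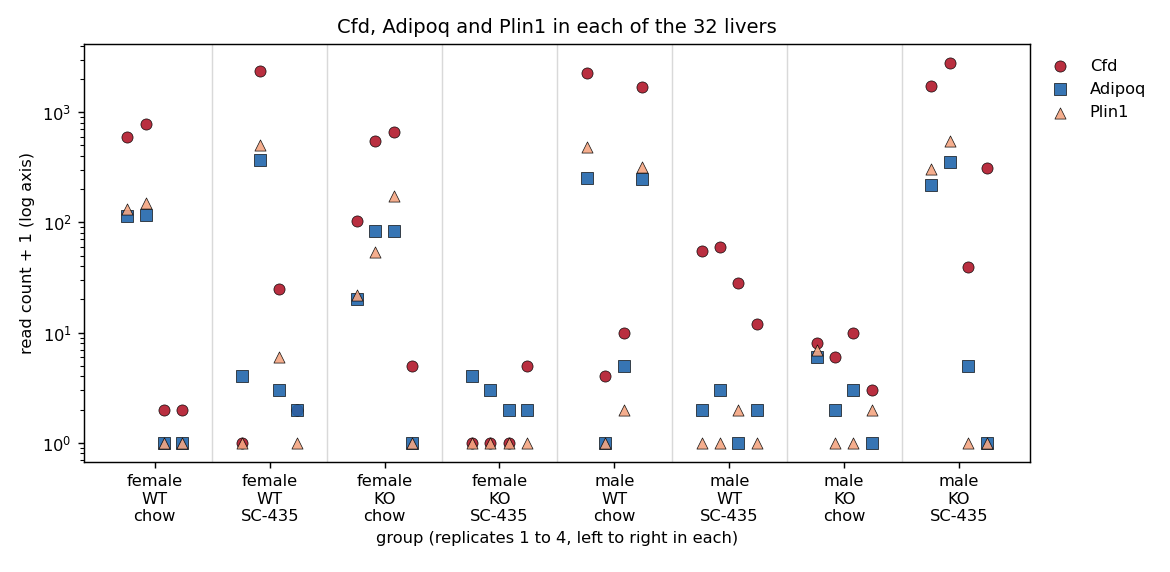
Read counts plus 1 (log axis) of Cfd, Adipoq and Plin1 in each of the 32 livers, by group (x axis, 4 mice each); each point is 1 mouse and 1 gene. The 3 genes are high together in 10 livers spread over 5 groups, and Cfd alone reaches 307 counts in replicate 4 of the male KO mice under SC-435.

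Adipoq (chromosome 16, 23146536 to 23158028), the defining secreted product of adipocytes, was highest in livers with many Cfd counts. An exception was replicate 4 of the male KO mice under SC-435, with 307 Cfd counts and 0 of Adipoq. Adipoq counts in replicates 1 to 4 were 114, 116, 0 and 0 in female WT mice on chow, 19, 83, 83 and 0 in female KO mice on chow, and 3, 363, 2 and 1 in female WT mice under SC-435. They were 253, 0, 4 and 244 in male WT mice on chow and 215, 352, 4 and 0 in male KO mice under SC-435. In the other 3 groups Adipoq had 5 counts or fewer. The 10 livers with 10 or more Adipoq counts, a line drawn after the data were seen, therefore lay in both sexes, both genotypes and both diets: 2 female WT and 3 female KO mice on chow, 1 female WT mouse under SC-435, 2 male WT mice on chow and 2 male KO mice under SC-435.

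The other transcripts of adipocytes were found in the same 10 livers. Below, livers with Adipoq, or that held it, are these 10. The other 22, called livers without Adipoq, had 5 Adipoq counts or fewer. Plin1 had 21 to 542 counts in these 10 and 0 to 6 in the other 22. Retn had 10 or more counts in 9 of the 10 and 0 to 4 in the other 22. Cidea had 9 to 182 counts in the 10 and 0 to 10 in the rest, and Lep reached 26 and 32 counts in 2 of the 10 and at most 1 in the rest. Of the 8 listed markers of brown adipocytes, Cidea, Ucp1, Cox8b and Dio2 were highest in these livers, whereas Cox7a1, Cpt1b and Elovl3 were counted widely and Zic1 had 3 counts or fewer in every liver. Ucp1, the uncoupling protein of brown fat, had 10 or more counts in 9 of the 10 livers, up to 615, and 0 to 3 counts in the other 22. Cox8b, a respiratory chain subunit of brown fat and muscle, had 7 to 133 counts against 0 to 4. The summed level of the 8 brown markers, most of it Elovl3 in males, did not follow Adipoq across groups. It was 445 to 474 CPM in male WT mice under SC-435, none of which held 10 Adipoq counts, and 8.52 to 25.5 CPM in female WT mice on chow, of which 2 did. The highest sum was in male WT mice on chow, at 171 to 1460 CPM, of which 2 held Adipoq. Among the 10 livers, replicate 2 of the female KO mice on chow stood apart, with 83 Adipoq counts but 1 count of Ucp1 and 9 of Cidea. Of the 10 transcripts listed as adipocyte markers hardly used by hepatocytes, Mrap (1313 to 3205 counts) and Adrb3 (82 to 789 counts) were counted in all 32 livers and so did not single out any mouse. Aqp7 and Tusc5 reached 88 and 22 counts in livers without Adipoq, and Lgals12 and Slc7a10 stayed at 3 counts or fewer there. The summed level of that list, most of it Mrap, was 44.4 to 120 CPM in male WT and 42.2 to 56.4 CPM in male KO mice on chow, and 67.2 to 90.9 CPM in male WT and 79 to 114 CPM in male KO mice under SC-435. In females it was 40.8 to 73.7 CPM in WT and 35.3 to 52.8 CPM in KO mice on chow, and 50.1 to 99.1 CPM in WT and 67.7 to 80.3 CPM in KO mice under SC-435. Whether the livers with adipocyte transcripts account for any difference of Cfd between groups was not tested.

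**Figure D2:**
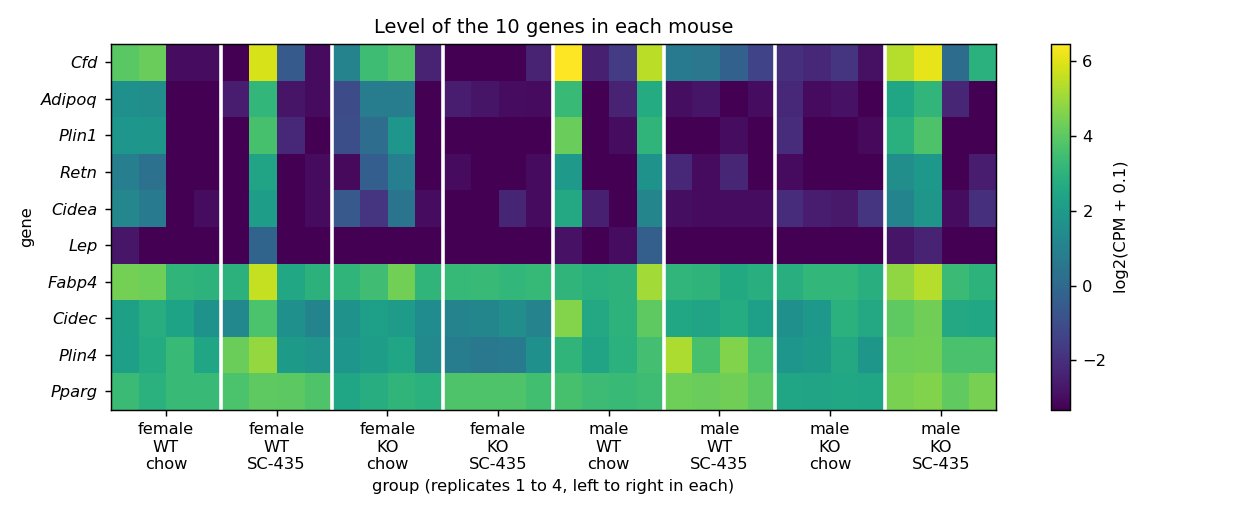
Level of each of the 10 genes (rows) in each mouse (columns, by group), as log2(CPM + 0.1) on the colour scale. Cfd, Adipoq, Plin1, Retn and Cidea are bright in the same columns, whereas Pparg, Plin4, Cidec and Fabp4 are present in every column.

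Within the 10 livers, Cfd and Adipoq kept a narrow ratio. Cfd counts per Adipoq count were 8.94 and 6.98 in male WT mice on chow (replicates 1 and 4) and 7.95 and 7.93 in male KO mice under SC-435 (replicates 1 and 2). The ratio was 5.20 and 6.76 in female WT mice on chow, 5.37, 6.61 and 8.01 in female KO mice on chow, and 6.55 in the female WT mouse under SC-435. The median was thus 6.87 while Adipoq itself ran from 19 to 363 counts, and KO and WT livers overlapped. Plin1 per Adipoq count ran from 0.639 to 2.06 and Retn per Adipoq count from 0.0526 to 1.06. Ucp1 per Adipoq count ran from 0.012 to 2.17 and Fabp4 per Adipoq count from 0.842 to 22.6. Each of these ratios, those of Plin1 and Retn included, was less even than that of Cfd.

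Deviations of Cfd from its group means were compared, across all 32 mice, with those of the 8 other genes averaging 10 or more counts. By Pearson's r they followed those of 6 genes (permutation within groups, Benjamini-Hochberg adjusted over 8 relations). The 6 were Adipoq, Plin1, Retn, Cidea, Cidec and Fabp4, and the same number passed without the 2 mice farthest from the median of Cfd. By Spearman's rho, Plin4 passed as well (rho 0.455, same permutation, adjusted p = 0.021). Within females 6 passed by Pearson's r, and within males 7, where Plin4 and Pparg passed and Fabp4 did not. Since the livers form separate sets, correlations are given within the 10 livers with Adipoq and within the other 22, a split chosen after the data were seen. Since these levels include the rise by which Cfd was chosen, the correlations within sets are descriptions with no p. Within the 10 livers, Cfd and Adipoq had a Pearson r of 0.992 and a Spearman rho of 0.976, and r was 0.981 without the 2 farthest mice. For Retn, Plin4, Pparg and Cidec, r with Cfd in the 10 livers was 0.952, 0.787, 0.81 and 0.92. In the other 22 livers r between Cfd and Adipoq was 0.00732 and rho was 0.0886, with Adipoq at 5 counts or fewer. There, r with Cfd was 0.621 for Retn, 0.62 for Plin4, 0.547 for Pparg and 0.534 for Cidec. Without the 2 farthest mice these were 0.334, 0.562, 0.387 and 0.53. The 22 livers come from 8 groups that also differ in diet and sex, whose part in these values was not tested.

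**Figure D3:**
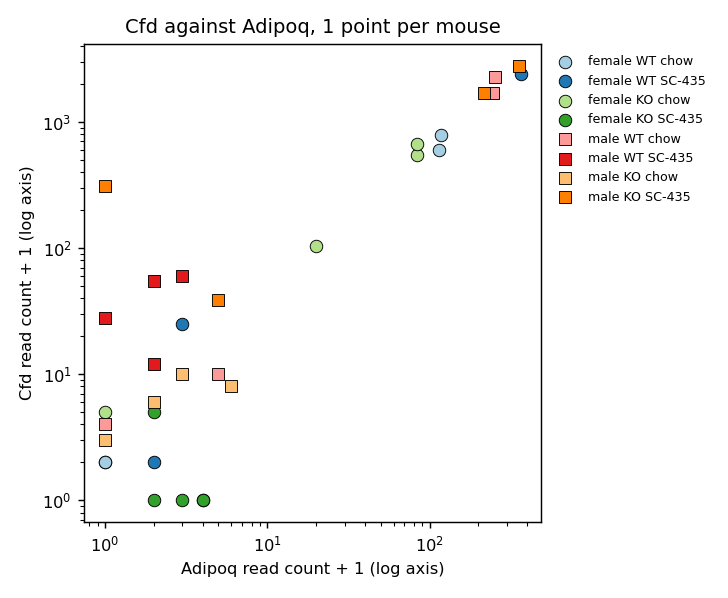
Cfd read count plus 1 against Adipoq read count plus 1 (both log axes), 1 point per mouse, coloured by group, circles for females and squares for males. The 10 mice at the upper right, with 102 to 2790 Cfd counts, lie along 1 line, and 6 male mice under SC-435 have 11 to 307 Cfd counts at 0 to 4 Adipoq counts.

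Among transcripts outside the set, the 1 whose level was most like that of Cfd was Ucp1. Its Pearson r with Cfd was 0.855 over the 32 mice and 0.899 for deviations from group means, out of 12670 genes with a mean of 50 or more counts. Cav1, a caveolin of adipocytes and endothelium, had 0.696 and 0.807. Prkar2b, a regulatory subunit of protein kinase A, had 0.651 and 0.787. Hba-a2, an alpha globin, was also among the 5 most alike over the 32 mice (0.632) and Gpx3, a secreted glutathione peroxidase, among the 5 for the deviations (0.801). These are descriptions over mice of 8 groups that share depth and tissue.

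Cfd was also counted in some livers with almost no Adipoq, and these were mostly males under SC-435. Replicate 4 of the male KO mice under SC-435 had 307 Cfd counts with 0 Adipoq, 0 Plin1, 0 Ucp1, 3 Retn and 6 Cidea counts. Taking the 3 counts that a count of 0 allows, its Cfd per Adipoq ratio was 102, against 5.20 to 8.94 in the 10 livers above. That value takes the 307 Cfd counts as exact. Male WT mice under SC-435 had 151 Cfd counts in all against 4 Adipoq counts, and 54 to 1 in replicate 1 gave a ratio of 54.0 (95% exact binomial interval 9.29 to 2170). Replicate 2 of that group had a ratio of 29.5, whose interval of 7.81 to 249 overlapped the upper end of the 5.20 to 8.94 above. Replicate 3 had 27 Cfd and 0 Adipoq counts, which gave 9.0 at 3 Adipoq counts. No interval was computed for it and its Cfd count was taken as exact, so it is not set apart from that range. Replicate 4 had a ratio of 11.0, whose interval of 1.6 to 473 included the ratio of the 10 livers. Male KO mice on chow had 23 Cfd counts in all against 8 Adipoq counts, and the ratio in the single mice was 1.4 to 5.0 where it could be taken. Replicate 3 of the male KO mice under SC-435 had 38 Cfd and 4 Adipoq counts, a ratio of 9.5 whose interval of 3.42 to 36.6 included the ratio of the 10 livers. In females with fewer than 10 Adipoq counts the highest Cfd count was 24, in replicate 3 of the WT mice under SC-435, with 2 Adipoq and 5 Plin1 counts. These intervals cover counting error only.

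In WT males, SC-435 did not change Cfd past the test. Its mean was 0.994 ± 0.596 CPM (SD, n = 4) under SC-435 and 33.2 ± 42.1 CPM on chow, a log2 fold change of -5.06 ± 1.75 (SE, edgeR quasi-likelihood test, adjusted p = 0.67). Without the 10 livers that had 10 or more Adipoq counts, left out after the data were seen, the same contrast turned to 2.66 (adjusted p = 0.178), with 0.295 to 1.58 CPM in the 4 mice under SC-435 and 0.0821 and 0.223 CPM in the 2 remaining mice on chow. In WT females the log2 fold change was 0.79 ± 1.79 (adjusted p = 0.855), and it was -5.41 (adjusted p = 0.192) without replicate 2 of the WT mice under SC-435. The direction of the Cfd difference in WT mice thus changed with the livers that entered the fit.

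In KO mice, where Cfd was chosen for its rise, its values are given without a test. In males Cfd was 41.6, 67.8, 1 and 7.61 CPM under SC-435 and 0.158, 0.115, 0.181 and 0.0361 CPM on chow, without overlap and with a log2 fold change of 7.91. Without the 2 livers that held Adipoq the log2 fold change was 5.14, resting on 2 mice under SC-435 against 4 on chow. In females the direction was the opposite, with 0, 0, 0 and 0.0909 CPM under SC-435 and 1.97, 10.6, 13.4 and 0.097 CPM on chow. There, 3 of the 4 mice on chow held Adipoq and none of the 4 under SC-435 did.

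Fabp4 and Cidec were present in every liver, and their highest values were in livers with Adipoq, although not every such liver was high. Fabp4 was 28.2 and 41.1 CPM in the male KO mice under SC-435 with Adipoq and 10.2 and 7.95 CPM in the other 2, and 48.9 CPM in replicate 2 of the female WT mice under SC-435 against 5.80 to 7.75 CPM in its group. In the 22 livers with fewer than 10 Adipoq counts, Fabp4 was 5.80 to 10.2 CPM. The first male WT mouse on chow had 253 Adipoq counts but 8.31 CPM of Fabp4, and the first female KO mouse on chow had 19 Adipoq counts and 8.32 CPM of Fabp4, both within that range. Cidec, which fuses lipid droplets, was 16.5 and 20.4 CPM in the male KO mice under SC-435 with Adipoq and 5.86 and 5.62 CPM in the other 2. In female WT mice on chow it was 4.6 and 6.72 CPM with Adipoq and 4.95 and 3.09 CPM without, and in female KO mice on chow 3.09, 4.47 and 4.19 CPM with and 2.60 CPM without. In male WT mice under SC-435 it was 4.50 to 6.62 CPM and in male KO mice on chow 2.89 to 7.52 CPM. Neither gene passed the edgeR test between genotypes, between diets in WT mice, or between the sexes.

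Pparg (chromosome 6, 115360951 to 115490399) was more even within groups than the adipocyte transcripts, and its group means were higher under SC-435 than on chow. In female WT mice it was 12.9, 16.2, 15.9 and 13.4 CPM under SC-435 and 10.1, 7.42, 9.78 and 9.66 CPM on chow. The groups did not overlap, and the 2 mice on chow with Adipoq (10.1 and 7.42 CPM) lay around the 2 without. The log2 fold change was 0.65 ± 0.12 (SE, n = 4 per group, edgeR quasi-likelihood test, adjusted p = 0.0218), a rise of 1.57-fold that was under the 2-fold set for a call. Of all genes, 2.4% were higher there at an adjusted p under 0.05. It did not pass without any 1 of 4 mice (chow replicate 3 or SC-435 replicates 2, 3 or 4, adjusted p 0.05 to 0.0656), nor without the 3 livers with Adipoq (adjusted p = 0.111).

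In male WT mice Pparg was 19.7, 18.7, 20 and 15.9 CPM under SC-435 and 12.2, 10.4, 9.66 and 10.7 CPM on chow. These groups did not overlap either. The log2 fold change was 0.79 ± 0.16, which missed the threshold over all genes in the edgeR test (adjusted p = 0.222). It passed without the first male WT mouse on chow, the library that stood apart (log2 fold change 0.86, adjusted p = 0.00844), and in DESeq2 (adjusted p = 0.000752).

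Pparg was lower in male KO than in male WT mice on chow. It was 5.41, 5.20, 5.72 and 5.28 CPM in KO mice against the WT values above, with no overlap and a log2 fold change of -0.95 ± 0.17 (edgeR, adjusted p = 0.0427). Of all genes, 0.151% were lower there at an adjusted p under 0.05. With the replicate number as a block the difference was of the same size (-0.95) but did not pass (adjusted p = 0.136), and it did not pass without any 1 of the mice other than WT replicate 1 either (adjusted p 0.0862 to 0.148), while DESeq2 gave -1.02 (adjusted p = 1.24e-06). In females it was 5.26, 6.66, 8.39 and 7.45 CPM in KO mice against 7.42 to 10.1 CPM in WT mice, a log2 fold change of -0.43 ± 0.16 that did not pass (adjusted p = 0.107) with overlapping groups. Under SC-435 no difference between genotypes passed the test, at 13.5, 13.4, 13.5 and 11.3 CPM in female KO mice (log2 fold change -0.17 ± 0.10, adjusted p = 0.291) and 22.2, 24.1, 16.8 and 22.0 CPM in male KO mice (0.20 ± 0.12, adjusted p = 0.671).

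Ordered by group mean, Pparg was highest in male KO mice under SC-435 (21.3 ± 3.16 CPM, SD, n = 4), then in male WT (18.6 ± 1.85), female WT (14.6 ± 1.71) and female KO mice (12.9 ± 1.09) under SC-435. The groups on chow followed, with male WT at 10.7 ± 1.07, female WT at 9.25 ± 1.23, female KO at 6.94 ± 1.32 and male KO at 5.41 ± 0.229 CPM. Every pair of neighbours in this order overlapped. Over all groups, the 16 mice under SC-435 had 11.3 to 24.1 CPM and the 16 on chow 5.20 to 12.2 CPM.

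**Figure D4:**
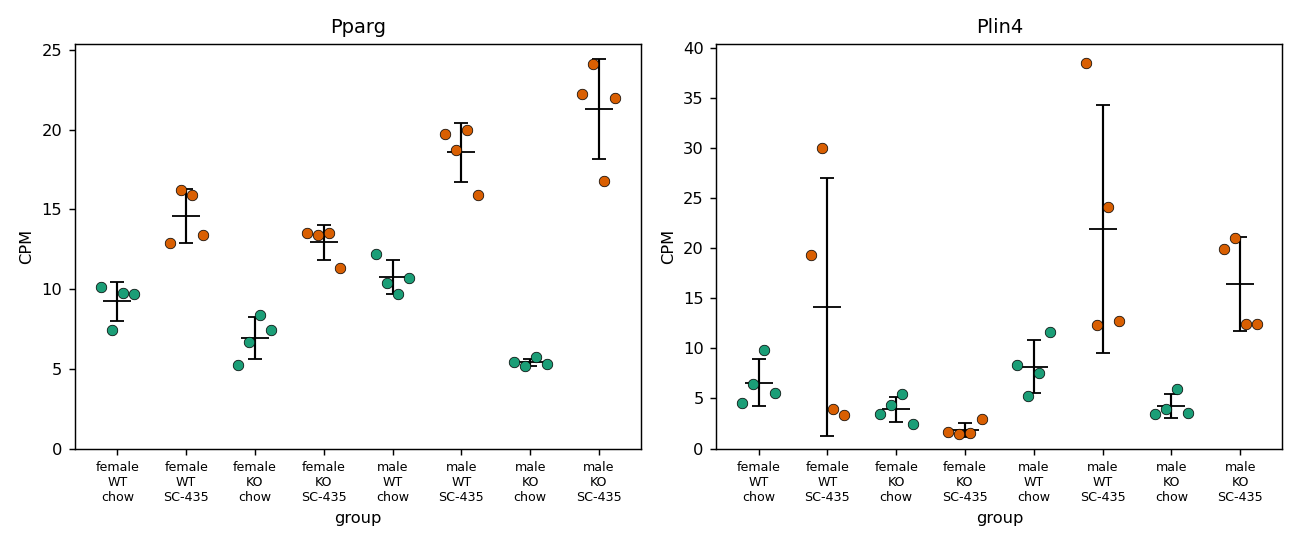
Pparg (left) and Plin4 (right) in CPM (y axes from 0) by group; points are single mice (orange under SC-435, green on chow), the horizontal line is the mean and the bars the SD of 4 mice. Each group under SC-435 has a higher Pparg mean than any group on chow, whereas Plin4 is lowest in female KO mice under SC-435 at 1.40 to 2.93 CPM.

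Plin4 (chromosome 17, 56100591 to 56109803), a coat protein of small lipid droplets, was lower in female KO than in female WT mice under SC-435. The KO livers had 1.68, 1.4, 1.5 and 2.93 CPM and the WT livers 19.3, 30, 3.91 and 3.31 CPM. The groups did not overlap, but the WT mice were themselves split into 2 high and 2 low values, of which 1 high mouse held Adipoq. The log2 fold change was -2.90 ± 0.68 (edgeR, adjusted p = 0.0237), which made Plin4 the only 1 of 4 tested genes of the set that was called there (2-fold or more and adjusted p under 0.05). Of all genes, 0.567% were called lower in that comparison. The call was lost without any of 4 single mice (WT replicate 1 or KO replicates 1, 2 or 3, adjusted p 0.0559 to 0.076) and was kept without the WT liver that held Adipoq (-2.23, adjusted p = 0.042).

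Plin4 was not called in the other tested comparisons. In male WT mice it was 38.5, 12.3, 24.1 and 12.7 CPM under SC-435 and 8.34, 5.20, 7.58 and 11.6 CPM on chow. The groups did not overlap, yet the log2 fold change of 1.42 ± 0.41 missed the threshold over all genes (adjusted p = 0.476), in a comparison in which 0.0394% of genes were called in either direction. In female WT mice the log2 fold change was 1.09 ± 0.63 (adjusted p = 0.371). On chow, Plin4 was 3.45, 3.91, 5.97 and 3.57 CPM in male KO mice (log2 fold change from WT -0.92 ± 0.30, adjusted p = 0.192) and 3.42, 4.34, 5.40 and 2.43 CPM in female KO mice (-0.76 ± 0.28, adjusted p = 0.0971), with overlap in both sexes. By DESeq2 these 2 were -0.98 (adjusted p = 0.0387) and -0.76 (adjusted p = 0.0429), past the adjusted p but under 2-fold. In males under SC-435 the difference between KO and WT was -0.41 ± 0.36 (edgeR, adjusted p = 0.762).

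For the effect of SC-435 in KO mice, the contrast that chose Cfd, the other genes are given as values only. In males, 5 of the 10 genes passed the filter on low counts, Cfd only through the mice under SC-435. Past the call threshold upward were 3 of them, beside 1.88% of all genes, a count that the choice of Cfd bears on and that is given as a description. Plin4 was 19.9, 21.0, 12.4 and 12.4 CPM under SC-435 against 3.45 to 5.97 CPM on chow (log2 fold change 1.96), and Pparg 16.8 to 24.1 against 5.20 to 5.72 CPM (1.98), both without overlap. Without the 2 livers with Adipoq these were 1.57 and 1.86, and Cidec went from 1.29 to 0.23. In females, 4 genes passed the filter and Plin4 was past the threshold downward (-1.05, against 3.7% of all genes called lower). Without the 3 livers with Adipoq, Plin4 stood at -0.38, resting on a lone mouse on chow, replicate 4 (2.43 CPM). Pparg was higher in females too, with 11.3 to 13.5 against 5.26 to 8.39 CPM (log2 fold change 0.90), while Cidec was lower (-0.69). Higher means under SC-435 in male and lower means in female KO mice were found for Cfd, Plin4, Cidec, Fabp4, Adipoq, Plin1, Retn and Cidea. Pparg was higher in both sexes, and Lep had a mean of 0 CPM in female KO mice on either diet. The difference between the sexes was not tested.

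None of the genes was called by edgeR in the remaining comparisons. Lep passed the filter on low counts in no comparison, and Adipoq, Plin1, Cidea and Retn passed it only in the comparison of genotypes in females on chow, in that of the sexes, and in the 2 tests of a difference between the sexes, which fit 4 groups. Between KO and WT females on chow 0 of 9 tested genes were called, where 6.68% of all genes were called in either direction. Plin4 and Pparg, 2 of the 8 genes other than Cfd, had an unadjusted p under 0.05 there, and DESeq2 called 0. For SC-435 against chow in WT females the count was 0 of 5 (1.1% of all genes), with 1 gene at an unadjusted p under 0.05 and 0 called by DESeq2. For SC-435 against chow in WT males it was 0 of 5 (0.0394% of all genes). There, 4 genes had an unadjusted p under 0.05 and DESeq2 called 0. The share of all genes at an unadjusted p under 0.05 was not computed for any comparison. Counts at that level, here and below, are therefore descriptions only.

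For KO against WT males on chow 0 of 4 genes were called (1.05% of all genes), with 3 genes at an unadjusted p under 0.05, and DESeq2 called Cidec and Pparg, 2 genes in all. For KO against WT males under SC-435 it was 0 of 5 (0.0259% of all genes), with 2 of the 4 genes other than Cfd at an unadjusted p under 0.05. Cfd there was 29.5 ± 31.1 CPM in KO and 0.994 ± 0.596 CPM in WT mice (SD, n = 4 each), given without a test. That contrast holds 2 KO livers with Adipoq and none from WT mice, and the log2 difference of Cfd went from 4.89 to 2.12 without them.

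Male and female WT mice on chow gave 0 called genes of 9 (1.4% of all genes called), with 1 gene at an unadjusted p under 0.05, and Pparg had a log2 fold change of 0.22 ± 0.17 (edgeR, adjusted p = 0.673). By DESeq2, 1 gene was called in this comparison of the sexes, Cidec, with a log2 fold change of 1.54 (adjusted p = 0.0299). The effect of SC-435 in WT mice and the effect of the knockout on chow differed between the sexes past the test for 0 of 9 genes each, where 0.0428% and 0.0235% of all genes passed. At an unadjusted p under 0.05 there were 3 of 9 genes and 4 of the 8 other than Cfd, and DESeq2 passed 0 in both. For Pparg these differences, males minus females, were 0.15 ± 0.19 (adjusted p = 0.998) and -0.57 ± 0.23 (adjusted p = 0.687). The comparisons share groups and so are not independent of one another.

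Other genes of the liver lipid droplet and of lipolysis were measured beside the set. In female KO against WT mice on chow, 9 of 20 were lower at an adjusted p under 0.05 (5.05% of all genes) and none was higher, with a median log2 fold change of -0.32 against -0.02 over all genes. Of the 9, 3 were called, where 1.01% of all genes were called lower. G0s2, an inhibitor of the lipase ATGL, fell by 2.07 ± 0.28 (adjusted p = 0.00226), Fitm1, which helps form droplets, by 2.17 ± 0.47 (adjusted p = 0.0135), and Mgll, which cleaves monoglycerides, by 1.14 ± 0.16 on the log2 scale (edgeR, adjusted p = 0.00248). Under SC-435, 3 of 20 were lower in female KO than WT mice (4.69% of all genes), with Plin5, a droplet coat protein of oxidative tissues, called at -1.19 ± 0.19 (adjusted p = 0.00463). In males the edgeR test passed none of the 20 between genotypes on chow (8 at an unadjusted p under 0.05, median log2 fold change -0.67 against 0.04 over all genes), between genotypes under SC-435 (1 at an unadjusted p under 0.05) or between diets in WT mice (2 at an unadjusted p under 0.05). The shares of all genes called in either direction there were 1.05%, 0.0259% and 0.0394%. In male KO mice under SC-435 against chow, Fitm1 was 62.5 against 6.87 CPM and Plin5 68 against 33.5 CPM, given as values.

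Partners and liver targets of Pparg gave few calls. In female KO against WT mice on chow, 1 of 15 was called higher, beside 5.67% of all genes, and 1 lower, beside 1.01%. The first was Lpl (lipoprotein lipase, log2 fold change 2.04 ± 0.33, edgeR, adjusted p = 0.00409), and the other Cebpb (a transcription factor of early adipogenesis, -1.55 ± 0.27, adjusted p = 0.00551). In males 0 of 14 or 15 tested genes of that list passed between genotypes on chow, between genotypes under SC-435 or between diets in WT mice, with 6, 4 and 3 genes at an unadjusted p under 0.05. Of all genes, 1.05%, 0.0259% and 0.0394% were called in either direction in these comparisons. In male WT against female WT mice on chow, Cd36 (fatty acid uptake, -1.65 ± 0.33, adjusted p = 0.0464) and Vldlr (lipoprotein receptor, -2.69 ± 0.45, adjusted p = 0.0203) were lower (0.709% of all genes were called lower). Of 6 receptors of adipokines, 0 were called by edgeR in any tested comparison, with at most 3 at an unadjusted p under 0.05, in female KO against WT mice on chow. Of all genes, 6.68% were called in either direction in that comparison, and 0.0259% in male KO against WT mice under SC-435.

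Of the complement genes that act with or after Cfd, 3 of 20 were called higher in female KO than WT mice on chow (5.67% of all genes) and none lower. They were the receptors C3ar1 (1.86 ± 0.25, adjusted p = 0.0022) and C5ar1 (1.30 ± 0.33, adjusted p = 0.0252) and the terminal component C6 (1.48 ± 0.44, edgeR, adjusted p = 0.0477). C3ar1 and C5ar1 are also genes of macrophages, of whose 12 markers 6 were called higher and 1 lower there. The terminal components C6, C8a, C8b and C9 were higher in male than in female WT mice on chow, C6 by a log2 fold change of 3.81 ± 0.35 (adjusted p = 0.000756), and 0.689% of all genes were called higher there. Of 6 genes that neighbour Cfd on chromosome 10, 4 or 5 were tested in each comparison other than that of diets in KO mice. Only Prtn3, a neutrophil protease, was called, at 3.20 ± 0.46 in male KO against WT mice on chow (edgeR, adjusted p = 0.0204). There, 1.05% of all genes were called in either direction, and Cfd was low in all 4 KO mice.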

How the data were processed

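Liver mRNA of 32 mice was sequenced as poly-A libraries, 1 per mouse, 4 per group. Per the submitters' processing notes, the authors aligned reads to mm10 with HISAT2 2.0.5 and counted them per gene with featureCounts 1.5.0-p3. Whether counting used strand is not given in the sources used here, so Pparg could share reads with an antisense transcript inside it. The deposited table holds raw read counts per gene, which were used here. Its 32 FPKM columns and 35 columns of the authors' own comparisons (fold changes, p-values and adjusted p-values) were not used.

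The 10 genes and the gene lists were chosen with earlier results of these data known. All 10 were named in every comparison, and from each list at most the 4 called genes with the largest change. Of the genes most like Cfd, 1 is not reported here. Counts were tested across all genes with edgeR 4.0.16 in R 4.3.3 (filterByExpr with a minimum count of 10, TMM factors, quasi-likelihood test, SE from the log2 fold change and its F) within the groups compared, with Benjamini-Hochberg adjustment, and calls needed both an adjusted p below 0.05 and a change past 1 on the log2 scale. CPM used TMM factors over all 32 libraries. No p is given for the diets in KO mice, or for Cfd in comparisons of groups that include KO mice, since Cfd was picked there. Relations used deviations of log2(CPM + 0.1) from group means and 100000 permutations within groups (SciPy 1.17.1). Alternatives were DESeq2 1.42.0, 2 other scalings, no filter, a replicate block, a single fit of all libraries and leaving out each library. Leaving out the 10 libraries with 10 or more Adipoq counts was added after the data were seen.

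The labels give replicate numbers and name no pairs of mice. Only for KO against WT males on chow was the same-numbered mouse the most alike for 4 of 4. Those deviations correlated weakly, at 0.101 to 0.168, so whether the numbers are pairs is not known. No 2 libraries of a group agreed within sampling noise (lowest chi-square per gene 18.5 over 48 pairs), and p-values measure the spread between mice. The tests were checked on simulated counts. A count of 0 allows up to 3 counts at a library's depth, and ratio intervals are exact 95% binomial.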

Additional observations from a re-analysis of the deposited data

Results flagged for a closer look

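In replicate 2 of the female WT mice under SC-435, 8 of the genes lay far above the other 3 mice of the group, at 58.0 CPM for Cfd, 8.85 for Adipoq, 12.2 for Plin1, 48.9 for Fabp4, 4.44 for Cidea, 13.0 for Cidec, 5.17 for Retn and 0.78 for Lep. Its Pparg (16.2 CPM) did not stand apart from the 12.9 to 15.9 CPM of the other mice in the same way. The fourth male WT mouse on chow stood above its group in Fabp4 (34.7 CPM) and Lep (0.674 CPM). Pparg was low for the group in replicate 2 of the female WT mice on chow (7.42 CPM) and in replicate 4 of the female KO mice under SC-435 (11.3 CPM). In all, 12 of 61 gene and group pairs held such a mouse by Dixon's test. The usual chance rate of about 1 in 20 does not apply here, so no excess is claimed. A pair entered only if its highest mouse had enough counts. For genes counted in few livers, such as Lep, this favoured groups with a high mouse. Of the 12, 8 came from 1 library, so they are not independent.

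Cfd moved in opposite directions in KO mice of the 2 sexes under SC-435. Its mean was 0.0227 CPM in female KO mice under SC-435, below those on chow, and 29.5 CPM in male KO mice under SC-435, above those on chow. The difference was not tested, and the means of Adipoq, Plin1, Retn, Cidea, Fabp4, Cidec and Plin4 moved in the same directions as Cfd. Of these 16 KO mice, 5 held 10 or more Adipoq counts, 3 of them females on chow and 2 of them males under SC-435.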

How the results depend on the processing

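Counts of called genes moved as follows. For female KO against WT mice under SC-435 the count of 1 became 5 with no filter on low counts and 0 with the replicate block, and 0 to 1 without single libraries. For male KO against WT mice on chow the count of 0 became 2 by DESeq2, 1 with median-of-ratios size factors, 1 with no filter and 5 in a single fit of all 32 libraries, and stayed at 0 without single libraries. For male KO against WT mice under SC-435 the count of 0 became 1 by DESeq2 (Cfd, chosen on these KO mice, so a description), and likewise 1 for male against female WT mice on chow. For SC-435 against chow in KO males the count of 3 became 5 by DESeq2, 8 with no filter, 5 in the single fit and 3 to 4 without single libraries. In KO females the count of 1 became 6 with no filter, 0 with the replicate block, 0 in the single fit, 0 without the libraries that held 10 or more Adipoq counts and 0 to 4 without single libraries. Each other alternative left the counts within 1.5 times. The causes were not tested, apart from the larger number of genes tested with no filter.

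Cfd reversed for SC-435 against chow in WT females with the replicate block (-0.42) and without replicate 2 of the WT mice under SC-435 (-5.41, range over single libraries -5.41 to 1.52), and in WT males without the libraries that held Adipoq (2.66). Plin4 in male KO against WT mice under SC-435 ran from -0.61 to 0.0101 without single libraries, reversing without replicate 1 of the WT mice under SC-435. The replicate block took Plin4 in female KO against WT mice under SC-435 to -2.42 (adjusted p = 0.0766) and Pparg under SC-435 in WT females to 0.66 (adjusted p = 0.0656), and brought Plin4 in female KO against WT mice on chow past the adjusted p (-0.76, 0.0359). Same-numbered mice were mostly not the most alike there (own number best for 0 or 1 of 4). Beyond these values, the counts above and Pparg in male KO mice on chow, the block changed no result's side of the threshold. The number of genes related to Cfd by Pearson's r was 6 or 7 with the other pseudocount and scaling and without single libraries, and 8 passed by Spearman's rho in males.

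Scaling by library size alone moved the median of all genes by 0.19 in female and 0.25 in male KO against WT mice on chow (log2), and Pparg there was -0.23 and -0.66. With 4 mice per group and 1 founder line, and with adipocyte transcripts unevenly spread over the groups, differences of Cfd between groups rest on few livers. Without the libraries that held Adipoq, female KO against WT mice on chow left 3 mice, of which the lone KO mouse was assumed to vary like the others, and Cfd could not be tested.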
